A study of Rattus norvegicus with 56 samples.

Results

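A set of 10 immediate early genes that do not encode AP-1 proteins were followed in rat kidney tubules after ureteral obstruction. They are Egr1, Myc, Klf10, Klf6, Klf4, Nr4a1, Btg2, Zfp36, Ier2 and Ier3, which were chosen by symbol and make up 10 of the 32883 genes in the deposited tables. Male Sprague-Dawley rats of 120-160 g, kept 1 to a cage, were anesthetized and had the left ureter freed through a flank cut. The ureter was then tied near the renal pelvis (unilateral ureteral obstruction, UUO) or left untied (sham), so anesthesia and surgery were common to both arms and no unoperated animals were part of the comparisons. Cortical collecting duct (CCD) and cortical thick ascending limb (cTAL) were microdissected 30 min or 3 h after surgery. Groups of 4 numbered replicates stood behind each arm and time, and a number had 2 libraries for CCD but 1 for cTAL. CCD libraries sharing a number were averaged first, so every group below has n = 4.

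Immediate early genes are transcribed within minutes of a growth factor, calcium, stretch or stress signal, without new protein synthesis, and most of their messages decay quickly. Many are switched on through serum response factor with its ternary complex partners, or through CREB. Egr1, Myc, the Kruppel-like factors Klf10, Klf6 and Klf4, and the orphan nuclear receptor Nr4a1 are transcription factors that carry the signal to later genes. Others act as brakes: Btg2 is an antiproliferative cofactor of mRNA deadenylation, and Zfp36 (tristetraprolin) binds AU-rich elements and speeds the decay of cytokine messages. Ier2 and Ier3 are small early response proteins, Ier3 being linked to survival under stress. In the collecting duct, principal cells take up water through aquaporin-2, and the thick limb takes up salt through Slc12a1.

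Sequence upstream of the start was at hand for 7 of the 10 genes in RefSeq's GRCr8 build (the values themselves rest on Rnor_6.0). The 250 bases before each start are shown for 6 of them, which hold the CArG boxes and cAMP response half-sites described below, written 5′ to 3′ on the strand of the gene, with capitals marking CArG boxes (the serum response factor motif) and cAMP response half-sites (TGACG, or CGTCA on the other strand). The start used for Klf4 lay 590 bases inside that gene's listed span, so its window may hold transcribed sequence and not a promoter, and it is not shown. The start used for Nr4a1, which has several listed transcripts, lay 12985 bases inside its span. Such inner starts made up 30.7% of all windows.
Egr1, chr18:26736828-26737077, strand +: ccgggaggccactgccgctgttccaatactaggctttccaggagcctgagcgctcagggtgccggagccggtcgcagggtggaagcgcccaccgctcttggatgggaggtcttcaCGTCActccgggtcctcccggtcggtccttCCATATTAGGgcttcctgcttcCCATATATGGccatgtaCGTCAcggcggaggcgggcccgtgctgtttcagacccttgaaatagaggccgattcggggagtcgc
Btg2, chr13:48087691-48087940, strand -: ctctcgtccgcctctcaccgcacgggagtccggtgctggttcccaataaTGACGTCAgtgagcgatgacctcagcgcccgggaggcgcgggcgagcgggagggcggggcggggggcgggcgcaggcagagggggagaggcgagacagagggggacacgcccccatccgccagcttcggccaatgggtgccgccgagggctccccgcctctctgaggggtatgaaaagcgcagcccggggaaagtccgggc
Zfp36, chr1:92799109-92799358, strand -: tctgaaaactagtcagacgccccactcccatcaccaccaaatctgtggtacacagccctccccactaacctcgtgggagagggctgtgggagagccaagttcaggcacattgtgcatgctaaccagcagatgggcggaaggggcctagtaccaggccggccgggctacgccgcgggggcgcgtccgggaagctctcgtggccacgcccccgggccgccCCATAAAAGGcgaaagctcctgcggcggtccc
Klf6, chr17:69458479-69458728, strand -: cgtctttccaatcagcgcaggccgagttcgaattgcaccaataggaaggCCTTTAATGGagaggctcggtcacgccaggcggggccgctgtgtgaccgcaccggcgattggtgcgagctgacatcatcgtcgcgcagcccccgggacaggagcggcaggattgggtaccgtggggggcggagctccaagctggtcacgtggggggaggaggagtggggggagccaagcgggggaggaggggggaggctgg
Ier2, chr19:40399123-40399372, strand +: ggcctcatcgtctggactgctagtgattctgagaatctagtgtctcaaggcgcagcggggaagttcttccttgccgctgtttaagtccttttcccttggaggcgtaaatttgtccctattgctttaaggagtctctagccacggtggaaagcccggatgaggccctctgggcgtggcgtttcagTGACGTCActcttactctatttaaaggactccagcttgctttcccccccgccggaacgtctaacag
Nr4a1, chr7:134259888-134260137, strand +: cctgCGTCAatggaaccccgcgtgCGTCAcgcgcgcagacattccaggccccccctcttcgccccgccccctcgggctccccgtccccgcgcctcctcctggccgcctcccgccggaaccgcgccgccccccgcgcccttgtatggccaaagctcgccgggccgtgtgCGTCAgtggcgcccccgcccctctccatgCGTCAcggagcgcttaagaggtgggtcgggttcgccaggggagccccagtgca
Both strands were searched. Egr1 held 2 CArG boxes, at -105 to -96 and -83 to -74 from the start, and 2 half-sites. Zfp36 held 1 CArG box at -32 to -23, and Klf6 held 1 at -201 to -192, against 1.5% of all 27457 windows of this length. The full cAMP response element TGACGTCA, which contains a half-site on each strand, stood at -201 to -194 in Btg2 and at -66 to -59 in Ier2. It was present in 1.7% of all windows. Nr4a1 held 4 half-sites, and a half-site was present in 19% of all windows. The AP-1 letters TGANTCA were in none of the 6 windows shown and in 6.36% of all windows, and the GC box GGGCGG was in Btg2, Zfp36, Klf6 and Nr4a1 and in 32.4% of all windows. These matches describe the letters in the windows and say nothing of binding.

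Values are TPM (transcript abundance scaled to a fixed total), which keep no sequencing depth, and each library had between 8744 and 11916 genes at 1 TPM or more. Changes are differences of log2(TPM + 1), which understate the change of genes near 1 TPM, and a fold is that difference taken out of the log. A gene is called where the limma adjusted p over all genes tested was under 0.05. The dissected segments carried their own markers: the summed principal cell markers were 5520 to 18694 TPM in CCD and 52.7 to 621 TPM in cTAL, and the summed thick limb markers were 32419 to 76741 TPM in cTAL and 227 to 10361 TPM in CCD. In these bulk samples fewer cells of a type and less RNA per cell cannot be told apart. The 2 times are in separate tables, so levels are set side by side only within a time.

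In sham animals 7 of the 8 tested members stood higher in CCD than in cTAL at each time. Most genes did so, 70.2% of all genes tested at 30 min and 70.3% at 3 h. At 30 min, 5 of the 8 members that passed the filter were called higher in CCD: Ier2, Egr1, Klf6, Zfp36 and Btg2. The background was high, with 41.7% of 11648 genes called higher in CCD. Egr1 was at 37.7, 146, 235 and 224 TPM in CCD sham numbers 1 to 4 and at 6.79, 5.98, 23.97 and 12.87 TPM in cTAL, a log2 difference of 3.37 ± 0.32 (SE, adjusted p = 0.000166). Every CCD sham value of Egr1 lay above every cTAL value. At 3 h the same 5 genes were called higher in CCD, against 27.7% of 10521 genes, with log2 differences of 3.87 for Ier2, 3.13 for Btg2, 3.02 for Egr1, 2.15 for Zfp36 and 0.91 for Klf6. Egr1 did not reach 1 TPM in all 4 cTAL sham replicates at 3 h, so it passed the filter there only with its CCD values. The counts between the sham segments are a description. Nr4a1 went the other way at 3 h, by -1.33 ± 0.27 (SE, adjusted p = 0.0106), where 10.4% of genes were called lower in CCD. Rescaling the libraries by medians of ratios moved the split of calls from 4859 higher and 1541 lower to 2977 and 2854 at 30 min, and from 2916 and 1099 to 1554 and 1775 at 3 h. The difference of Ier3 was 0.27 at 30 min and 0.14 at 3 h, uncalled, and turned to -0.09 and -0.18 under that rescaling.

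TPM are per transcript length, so members can be ranked within a group. In CCD sham at 3 h the order by median was Klf6 (144 TPM), Btg2 (123 TPM), Ier2 (102 TPM), Zfp36 (94.3 TPM), Ier3 (48.2 TPM), Klf10 (21.1 TPM), Egr1 (20.9 TPM), Nr4a1, Myc and Klf4. The first 5 overlapped their neighbours, and gaps without overlap stood only between Ier3 and Klf10 and between Egr1 and Nr4a1. In cTAL sham at 3 h it began with Klf6 (70.5 TPM), Ier3 (54.0 TPM), Zfp36 (21.5 TPM) and Btg2 (12.4 TPM), and each gene overlapped the next. Egr1, at 0.925 TPM, was eighth there.

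**Figure D1:**
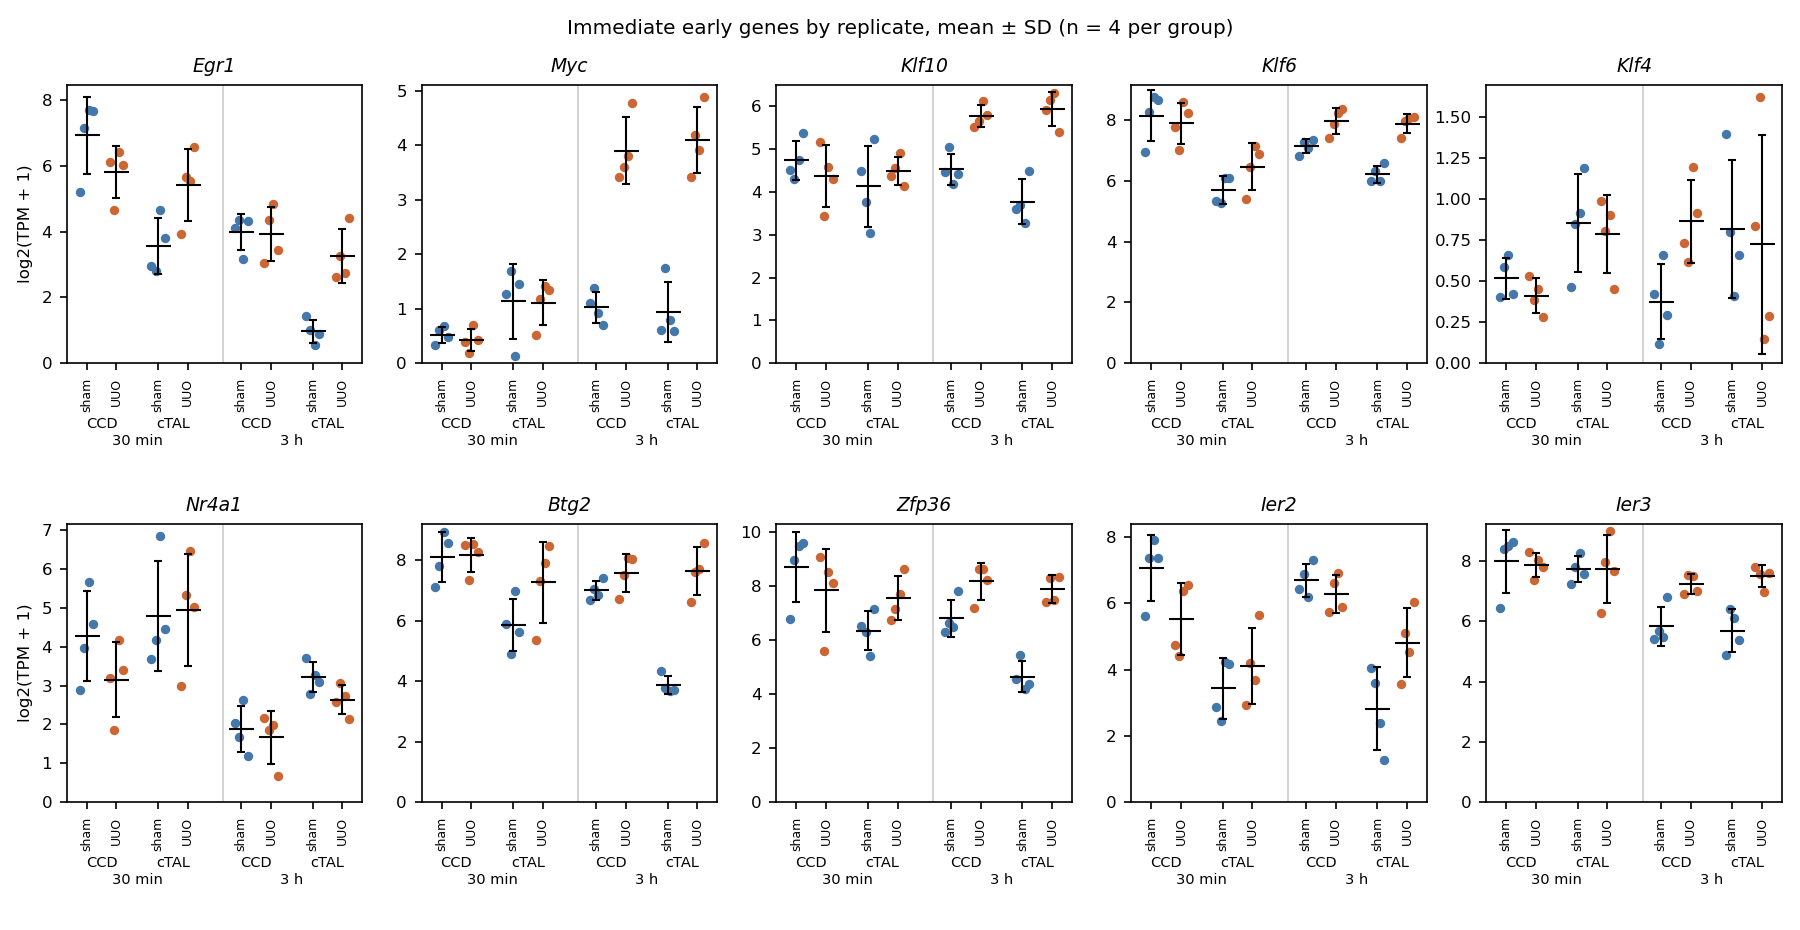
Level of each gene, as log2(TPM + 1) on the vertical axis, in the 4 replicates (points) of each arm, segment and time, with the mean and SD as bars; vertical axes differ between genes. At 3 h, Btg2, Zfp36, Myc, Egr1, Klf10, Klf6 and Ier3 in cTAL show no overlap between sham (blue) and UUO (orange). Of these, Myc, Klf10, Klf6 and Ier3 show no overlap at 3 h in CCD either.

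In cTAL at 3 h, 7 of the 9 members that passed the filter were called higher in UUO and none lower. Among all 10023 genes tested 4.06% were called higher. Myc and Egr1 did not reach 1 TPM in all 4 sham replicates, so they passed the filter only with their UUO values. The members were chosen with earlier results of these data known, so the counts set beside shares of all genes are a description. The same 7 genes, Btg2, Zfp36, Myc, Egr1, Klf10, Ier3 and Klf6, had all 4 UUO values above the highest sham value, which held for 5.68% of genes. The median change of the 9 tested members was 2.17, against -0.12 over all genes. All 7 calls held whichever replicate was left out.

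Among the transcription factors in cTAL at 3 h, Myc was at 0.52, 2.35, 0.73 and 0.5 TPM in sham numbers 1 to 4 and at 9.7, 17.1, 14.1 and 28.3 TPM in UUO. All UUO values were far above all sham values, and the difference was 8.98-fold (log2 3.17 ± 0.39 SE, adjusted p = 0.00192). Egr1 was at 1.68, 1.01, 0.48 and 0.84 TPM in sham and at 5.21, 8.6, 5.62 and 20.25 TPM in UUO, again without overlap (log2 2.29 ± 0.41 SE, adjusted p = 0.00979). UUO number 4 was the highest of both genes. Klf10, a repressor induced by TGF-beta, was at 11.1, 12.0, 8.58 and 21.6 TPM in sham and at 59.5, 69.1, 78.5 and 40.9 TPM in UUO, a 4.51-fold difference (log2 2.17 ± 0.29 SE, adjusted p = 0.00288). Klf6 was already abundant in sham, at 62.2 to 93.8 TPM, and lay at 170.1 to 271 TPM in UUO (log2 1.66 ± 0.19 SE, adjusted p = 0.00139). Nr4a1 was at 5.84 to 12.1 TPM in sham and 3.44 to 7.32 TPM in UUO and was not called (log2 -0.58 ± 0.30 SE, adjusted p = 0.242). It was the only tested member with a lower mean in UUO there, with 3 of 4 UUO values under the lowest sham value. Klf4, a factor of epithelial differentiation, was at 0.33 to 1.64 TPM in sham and 0.11 to 2.08 TPM in UUO, and did not pass the filter of 1 TPM in 4 of 8 replicates in any comparison.

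Of the brakes, Btg2 was called in cTAL at 3 h. It was at 19.2, 12.8, 11.8 and 12 TPM in sham and at 98.2, 196, 210 and 380.1 TPM in UUO. The lowest UUO value was several times the highest sham value, and the difference was 13.6-fold (log2 3.76 ± 0.35 SE, adjusted p = 0.000528). Zfp36 was at 22.9, 42.9, 17.05 and 20.0 TPM in sham and at 169, 316, 179.95 and 326 TPM in UUO, without overlap (log2 3.24 ± 0.31 SE, adjusted p = 0.000667). Ier3 was at 28.4, 84.4, 67.6 and 40.3 TPM in sham and at 223, 189.7, 124 and 193 TPM in UUO, a 3.47-fold difference (log2 1.80 ± 0.32 SE, adjusted p = 0.00947). Ier2 was at 15.4, 11.2, 4.2 and 1.41 TPM in sham and at 10.9, 33.5, 21.97 and 65.1 TPM in UUO. Its arms overlapped through UUO number 1, and it was not called (log2 1.99 ± 0.65 SE, adjusted p = 0.0748). Without UUO number 1 its adjusted p was 0.0465.

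In CCD at 3 h, 5 of the 9 members that passed the filter were called higher in UUO and none lower: Myc, Klf10, Ier3, Zfp36 and Klf6. Among all 10530 genes tested 5% were called higher. Myc passed the filter here too only with its UUO values, and these counts are likewise a description. Myc, Klf10, Klf6 and Ier3 had no overlap between the arms, which held for 6.31% of genes. The count of 5 went down to 2 without sham number 2 or without UUO number 2 and to 3 without sham number 1 or 3 or UUO number 3 or 4. It was 6 without UUO number 1, 3 with no filter and 2 from library 2 of each number alone. The median change of the 9 tested members was 0.83, against -0.14 over all genes. Median-of-ratios rescaling brought the median of all genes to -0.02 in CCD and 0.00 in cTAL at 3 h. The same rescaling moved the split of all calls from 526 higher and 847 lower to 689 and 480 in CCD, and from 407 and 766 to 496 and 430 in cTAL, and left the members' calls as they were.

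Myc was at 1.18, 1.62, 0.9 and 0.635 TPM in CCD sham at 3 h and at 10.5, 13.5, 13.1 and 27.3 TPM in UUO. The arms did not overlap, and the difference was 7.33-fold (log2 2.87 ± 0.31 SE, adjusted p = 0.00218). Klf10 was at 21.4, 31.9, 17.2 and 20.8 TPM in sham and at 45.0, 49.4, 68.9 and 55.5 TPM in UUO (log2 1.24 ± 0.20 SE, adjusted p = 0.00874). Both calls held whichever replicate was left out. Ier3 was at 41.4, 50.5, 46.0 and 120.4 TPM in sham and at 122, 184, 181 and 129 TPM in UUO (log2 1.40 ± 0.30 SE, adjusted p = 0.0181), with sham number 4 just under the UUO range. Its call was lost without sham number 2 (adjusted p = 0.0551) and without UUO number 2 (adjusted p = 0.0543).

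The Zfp36 and Klf6 calls in CCD at 3 h rested on all replicates together. Zfp36 was at 82.5, 99.8, 88.7 and 243 TPM in sham and at 146, 395, 396 and 302 TPM in UUO. Sham number 4 overlapped the UUO arm, the two-sided exact permutation p was 0.0571, and the limma difference was 1.37 ± 0.38 (SE, adjusted p = 0.0449). Its call held in 2 of the 8 fits that left out a replicate, with adjusted p from 0.0152 to 0.114. Klf6 was at 113, 153, 135 and 161 TPM in sham and at 169, 234, 299.9 and 329 TPM in UUO, without overlap (log2 0.83 ± 0.21 SE, adjusted p = 0.0300). Its call held in 1 of the 8 such fits, the one without UUO number 1, with adjusted p from 0.00821 to 0.0731. UUO number 1 was the lowest of its group for 8 of the 10 members.

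The other 4 tested members were not called in CCD at 3 h. Egr1 was at 22.4, 22.5, 8.45 and 19.5 TPM in sham and at 7.28, 19.6, 27.9 and 9.96 TPM in UUO, with wide overlap (log2 -0.06 ± 0.41 SE, 95% interval -0.97 to 0.86). Btg2 was at 104 to 173 TPM in sham and 104 to 275 TPM in UUO, with 3 of 4 UUO values above the highest sham value (log2 0.58 ± 0.29 SE, adjusted p = 0.206). Without UUO number 1 its difference was 0.87 (adjusted p = 0.0244). Ier2 was at 71.5 to 158 TPM in sham and 52.1 to 119 TPM in UUO (log2 -0.41 ± 0.31 SE). Nr4a1 was at 1.55 to 5.19 TPM in sham and 0.665 to 3.75 TPM in UUO (log2 -0.22 ± 0.39 SE).

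**Figure D2:**
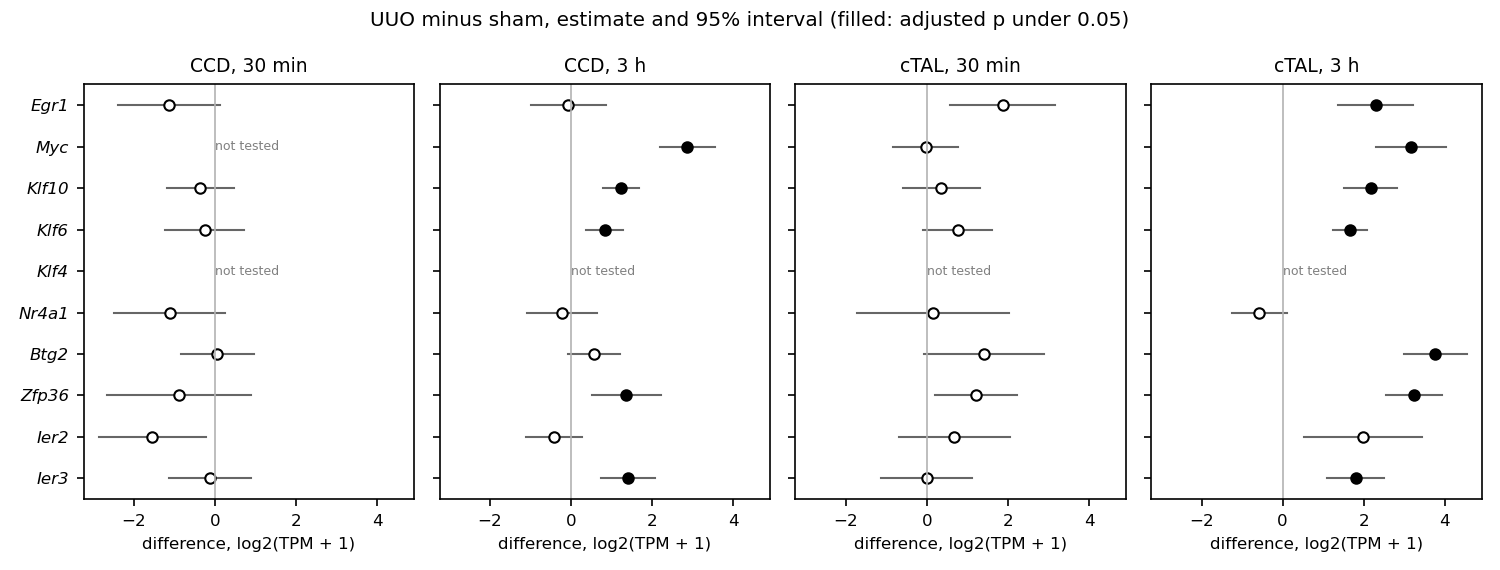
UUO minus sham for each gene on the log2(TPM + 1) scale (horizontal axis) with its 95% interval from limma, in 4 panels by segment and time; filled points were called. The filled points number 7 in cTAL at 3 h and 5 in CCD at 3 h, and none at 30 min.

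Some markers of the segments themselves and of other cells differed between the arms at 3 h. The 8 principal cell markers summed to 15965 to 18694 TPM in CCD sham and 5520 to 10071 TPM in CCD UUO, without overlap, with 5 of 8 called lower, where 8.04% of all genes were. The 7 intercalated cell markers overlapped, at 3018 to 4630 TPM in CCD sham and 3244 to 5501 TPM in CCD UUO, with 0 of 7 called. The 6 thick limb markers summed to 37347 to 63195 TPM in cTAL sham and 32419 to 36886 TPM in cTAL UUO, again without overlap, with 2 of 6 called lower, against 7.64% of all genes. The 8 proximal tubule markers summed to 151 to 701 TPM in CCD sham and 481 to 2916 TPM in CCD UUO, and to 512 to 1153 TPM in cTAL sham and 1432 to 3150 TPM in cTAL UUO. Of these 8 markers, 4 were called higher in CCD and 5 in cTAL, where 5% and 4.06% of all genes were. The 4 red cell loci summed to 25.4 to 1187 TPM in CCD sham and 1494 to 7895 TPM in CCD UUO, and to 29.8 to 3161 TPM in cTAL sham and 1834 to 11334 TPM in cTAL UUO, with 4 of 4 called higher in CCD and 0 of 4 in cTAL. The 6 neutrophil markers summed to 1.82 to 37.98 TPM in CCD UUO and to at most 0.49 TPM in CCD sham, and to at most 4.57 and 5.98 TPM in cTAL UUO and sham, with Mpo and Elane listed at 0 in every library at 3 h. The 8 macrophage markers summed to 1064 to 2009 TPM in cTAL UUO and 1910 to 2813 TPM in cTAL sham, with 3 called lower, while 3 were called higher in CCD. The 7 smooth muscle and fibroblast markers summed to 5.68 to 16.9 TPM in CCD sham and 18.2 to 78.5 TPM in CCD UUO, with 1 of 3 tested, Tagln, called higher. Endothelial markers summed to 49.2 to 311 TPM in cTAL sham and 45.9 to 80.2 TPM in cTAL UUO, with 2 of 3 tested, Cdh5 and Emcn, called lower. CCD UUO number 4 also carried 10361 TPM of thick limb markers, against 227 to 518 TPM in the other CCD UUO numbers. CCD sham numbers 1 and 3 carried 4802 and 5261 TPM, against 828 and 532 TPM in sham numbers 2 and 4. The thick limb marker Umod was at 493 and 18235 TPM in the 2 libraries of UUO number 4. It was at 6941 and 410 TPM in those of sham number 1, and at 7957 and 258 TPM in those of sham number 3. Without UUO number 4, Myc, Klf10 and Ier3 were still called and Zfp36 and Klf6 were not. At 30 min the intercalated cell markers in cTAL were the only marker sum without overlap. They were at 0.79 to 9.02 TPM in sham and 10.5 to 16.4 TPM in UUO. For principal cell markers in CCD, 3 of 4 UUO values lay under the lowest sham value. For red cell markers in CCD and smooth muscle and fibroblast markers in cTAL, 3 of 4 lay above the highest. None of the listed markers was called at 30 min. The part of these marker differences in the members' changes at either time was not tested.

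At 30 min no member was called in either segment. In cTAL 0 of the 9 tested members passed, where 0.0091% of 10993 genes did. At an unadjusted p under 0.05 there were 2, Egr1 and Zfp36, against 2.27% of genes, and no member was without overlap, which held for 1.72% of genes. Egr1 was at 6.79, 5.98, 23.97 and 12.87 TPM in cTAL sham and at 14.25, 49.6, 45.6 and 93.5 TPM in UUO (log2 1.87 ± 0.57 SE, unadjusted p = 0.00958, adjusted p = 1.00). Of the 4 UUO values, 3 lay above the highest sham value, and the two-sided exact permutation p was 0.0571, where 0.0286 is the smallest this design allows. Zfp36 was at 91.6, 77.9, 41.3 and 139 TPM in sham and at 105, 139.8, 209.8 and 392 TPM in UUO (log2 1.21 ± 0.45 SE), and Btg2 was at 58.7, 28.7, 125 and 48.8 TPM in sham and at 40.5, 159, 240.2 and 352 TPM in UUO (log2 1.42 ± 0.65 SE). For Btg2, Zfp36 and Klf6 too, 3 of 4 UUO values lay above the highest sham value, and UUO number 1 was the one inside the sham range. Fos, the reference immediate early gene, was at 19.7 to 87.4 TPM in cTAL sham and 185 to 546 TPM in UUO. Ier3 was at 149.9 to 306 TPM in cTAL sham and 75.7 to 511 TPM in UUO, and Nr4a1 at 11.8 to 115 TPM and 6.92 to 86.2 TPM, both with differences near 0.

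In CCD at 30 min, 0 of the 8 tested members were called, where 0.0264% of 11369 genes were. At an unadjusted p under 0.05 there was 1, Ier2, against 15.7% of genes. The arms did not separate for any member, against 10.9% of genes. Ier2 was at 49.3, 165, 278 and 165 TPM in sham and at 29.2, 20.5, 82.0 and 92.8 TPM in UUO (log2 -1.54 ± 0.59 SE, unadjusted p = 0.0270, adjusted p = 0.291). Egr1 was at 37.7, 146, 235 and 224 TPM in sham and at 67.5, 25.3, 85.4 and 65.7 TPM in UUO (log2 -1.13 ± 0.57 SE, adjusted p = 0.343), and Nr4a1 had a mean difference of -1.12 ± 0.61 (SE). The median of all genes was itself at -0.31 in this comparison and at -0.02 after median-of-ratios rescaling, under which the members' median went from -0.62 to -0.26. Klf6 and Ier3, at -0.25 and -0.12 as deposited, turned to 0.12 and 0.25 under that rescaling. Myc was at 0.655 TPM or less in every CCD replicate at 30 min and did not pass the filter.

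In CCD at 30 min the same numbers were lowest for most members, by margins that varied between genes. In sham number 1, Ier3 was at 85.8 TPM against 338 TPM in number 2, the next lowest. Klf4 was at 0.335 TPM there against 0.345 TPM in number 4. Sham number 1 was the lowest of its group for 9 of the 10 members and UUO number 2 was the lowest of its group for 9 of the 10. Zfp36 was at 111 TPM in sham number 1, against 506 to 777 TPM in the other sham numbers, and at 60.6 TPM in UUO number 2, against 279 to 539 TPM in the other UUO numbers. Fos was low in the same 2 numbers, at 223 TPM in sham number 1 and 161 TPM in UUO number 2. The second library of UUO number 2 had fewer genes reaching 1 TPM than any other library, 8744. No member was called at 30 min in CCD with either number left out.

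The 2 CCD libraries of a number differed for Egr1 in 1 direction in sham. Library 1 was above library 2 in all 8 sham numbers over both times, with ratios of TPM + 1 from 1.54 to 5.15 and a median of 2.23. At 3 h, sham number 1 held 38.2 TPM in library 1 and 6.61 TPM in library 2, and at 30 min sham number 3 held 352 and 118 TPM. In UUO library 1 was above library 2 in 4 of 8 numbers, with ratios from 0.622 to 1.92. Of 10268 genes with a mean of 1 TPM or more, 9.13% had library 1 above library 2 in all 8 sham numbers. Among the other members the count of sham numbers with library 1 higher ran from 2 of 8 (Btg2, Ier3 and Klf10) to 6 of 8 (Myc and Ier2). The Egr1 difference between UUO and sham depended on the library: at 30 min it was -1.70 from library 1 alone and -0.56 from library 2 alone, and at 3 h it was -0.72 and 0.61. The labels do not say how the 2 libraries of a number differ.

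**Figure D3:**
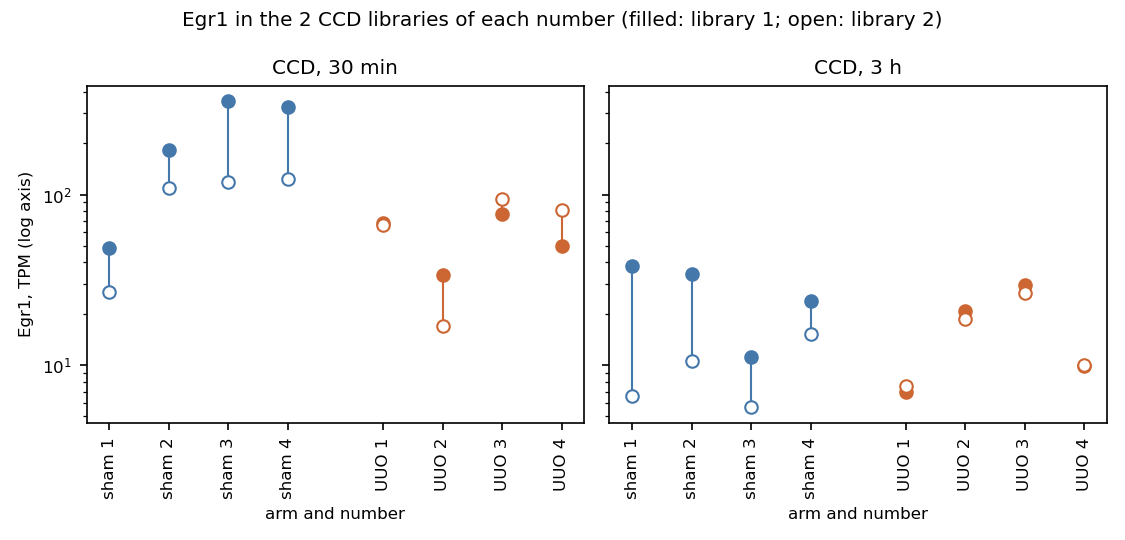
Egr1 in TPM (log axis) in the 2 CCD libraries of each numbered replicate, joined by a line, at 30 min (left) and 3 h (right); filled points are library 1, open points library 2, blue is sham and orange UUO. The filled point lies above the open one in all 8 sham numbers and in 4 of 8 UUO numbers.

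The response to UUO was compared between the segments on CCD minus cTAL within each number. At 3 h, 2 of 9 tested members passed, Btg2 and Klf6, both with a smaller response in CCD, against 0.55% of 11084 genes called in that direction. The Btg2 difference was -3.19 ± 0.29 (SE, adjusted p = 0.00239), the second smallest p of all genes, and held in every fit run. Its UUO levels were 207 ± 80.4 TPM in CCD and 221 ± 117 TPM in cTAL (mean ± SD), while its sham levels were 131 ± 30.6 and 13.9 ± 3.52 TPM. For Klf6 the difference was -0.83 ± 0.14 (SE, adjusted p = 0.0276), and it stayed called in 2 of the 8 fits that left out a replicate, with adjusted p from 0.0391 to 0.0884. Egr1 differed by -2.35 ± 0.58 (SE, adjusted p = 0.0841), Zfp36 by -1.87 ± 0.45 (SE, adjusted p = 0.0777) and Ier2 by -2.40 ± 0.75 (SE, adjusted p = 0.176). For Myc the difference was -0.29, with a 95% interval of -0.999 to 0.41, and for Ier3 it was -0.39, with an interval of -1.45 to 0.66.

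At 30 min the difference between the segments was called for 0 of 9 members, as for 0% of 12075 genes. At an unadjusted p under 0.05 there were 4 members, Egr1, Ier2, Klf6 and Zfp36, against 14.8% of genes. Egr1 differed by -3.00 ± 0.69 (SE, adjusted p = 0.0862). It was called from library 1 alone, at -3.57 (adjusted p = 0.0124), and not from library 2 alone, at -2.43 (adjusted p = 0.610), and it was also called without UUO number 3 (adjusted p = 0.0491), as was Ier2 (adjusted p = 0.0309).

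**Figure D4:**
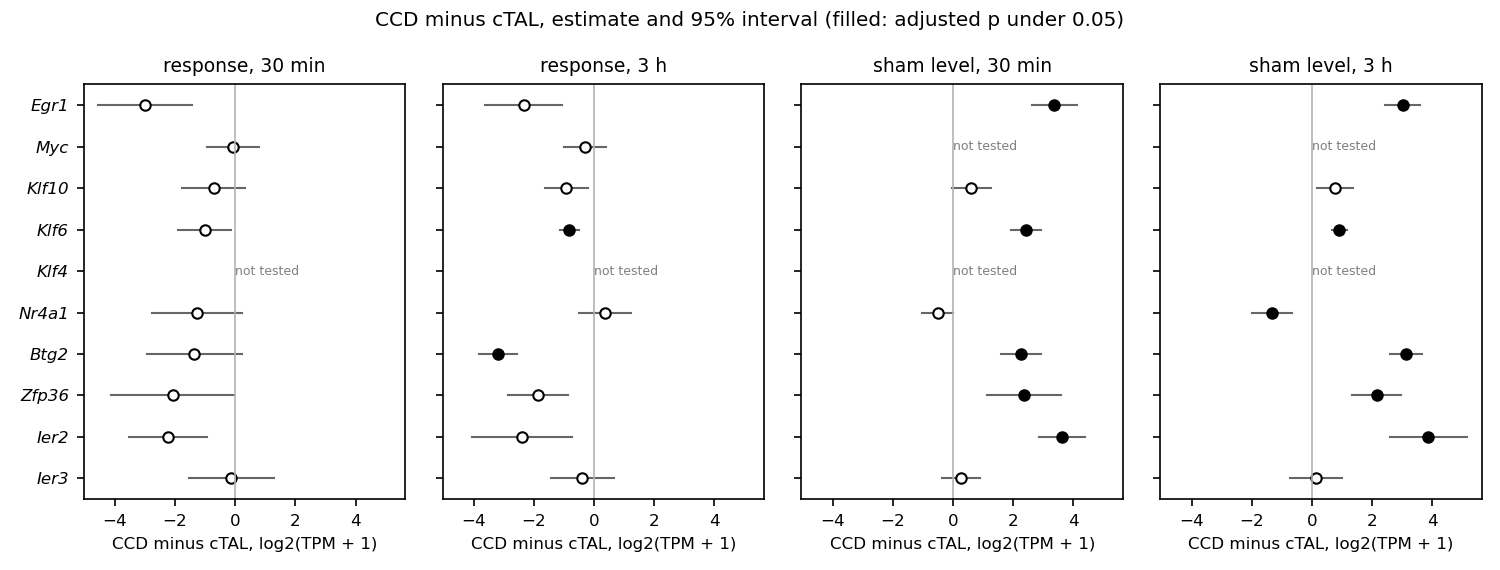
CCD minus cTAL on the log2(TPM + 1) scale with 95% intervals: the difference of the UUO response (left pair of panels) and of the sham level (right pair) at each time, with filled points called. The 5 genes Egr1, Klf6, Btg2, Zfp36 and Ier2 have sham levels called higher in CCD at both times, and Btg2 and Klf6 have a response called smaller in CCD at 3 h.

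Between the times, the response at 3 h less that at 30 min was called for Myc in cTAL and for no other member there, at 3.19 ± 0.54 (SE, adjusted p = 0.00794), where 0.958% of 11375 genes were called higher. Myc was at 0.1 to 2.22 TPM in the 8 cTAL replicates at 30 min, close to the floor of this scale. In CCD 1.37% of 11696 genes were called higher, and of the members only Myc. Its CCD values at 30 min lay under the filter and it entered this fit through the 3 h values alone, so its difference of 2.97 repeats the 3 h change of 2.87 and is given as a description. Rescaling moved the split of all calls in CCD from 160 higher and 30 lower to 171 and 80. With a pseudocount of 0.1 the Myc call in cTAL was lost (adjusted p = 0.0520). In CCD, Klf10 differed by 1.60 ± 0.44 (SE, adjusted p = 0.0841) and Zfp36 by 2.24 ± 0.97 (SE, adjusted p = 0.256). Egr1 in cTAL differed by 0.42, with a 95% interval of -1.17 to 2.00.

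Other genes around these members were counted from lists. Over all genes tested at 3 h, 4.06% were called higher and 7.64% lower in cTAL, and 5% and 8.04% in CCD. Of the other immediate early genes, 19 of 32 passed the filter in cTAL at 3 h, and 7 were called higher, among them Sgk1 (log2 2.64), Csrnp1 (2.28), Crem (1.55) and Gadd45a (0.98), and 1 lower, Rgs2 (-1.74). In CCD at 3 h, 3 of 18 were called higher, Gadd45g, Klf9 and Csrnp1, and 1 lower, Cited2 (-1.05). The responses of Sgk1 and Gadd45a were called smaller in CCD, by -2.03 and -0.80. All 4 tested AP-1 genes (Atf3, Fos, Jun and Junb) were called higher in cTAL at 3 h, Fos by 4.55, and 1 of 4 in CCD, Atf3. None of these genes was called in either segment at 30 min.

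Counts among the regulators upstream were near the share of all genes just given. Nab2, a corepressor of Egr1, was called higher in CCD at 3 h (log2 1.04 ± 0.24 SE, adjusted p = 0.0247), 1 of 9 tested. Elk3, a ternary complex factor, was called lower in cTAL (log2 -1.47 ± 0.34 SE, adjusted p = 0.0231), 1 of 8 tested. Of the Myc network, Mxi1, which competes with Myc for Max, was called lower in cTAL at 3 h (log2 -1.13 ± 0.30 SE, adjusted p = 0.0399), 1 of 4 tested, and 0 of 5 in CCD. Listed Myc targets had a median change of -0.02 in CCD and -0.06 in cTAL, close to all genes. Odc1, the first enzyme of polyamine synthesis, was called higher in both segments, by 1.44 in CCD and 2.09 in cTAL, and Cdk4 was called lower in both, by -0.55 and -0.77. Gnl3 was also called higher and Ldha lower in CCD, and Ifrd2 lower in cTAL. Of the Myc targets tested at 3 h, 2 of 17 were called higher and 2 lower in CCD. In cTAL, 1 of 18 was called higher and 2 lower.

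The next list held 15 messages known to be bound by Zfp36, and was chosen with earlier results of these data known. In CCD, 6 of them passed the filter at 30 min and 9 at 3 h. A gene can pass through high UUO values alone, so the counts below are a description and not a test. In CCD at 3 h, 5 of 9 tested were called higher, where 5% of all genes were: the chemokines Ccl20 (log2 6.62), Cxcl1 (4.66) and Ccl2 (3.30), the cytokine Csf3 and the urokinase receptor Plaur (2.81), and their list median was 2.81. In cTAL, 5 of 10 were called higher, where 4.06% of all genes were: Ccl20 (4.63), Cxcl1 (2.93), Ccl2 (2.29), the phosphatase Dusp1 (2.18) and the cell cycle inhibitor Cdkn1a (1.79), with a list median of 1.73. None was called lower at 3 h, and none was called at 30 min.

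For each member called at 3 h, the 3 genes most alike were found by Pearson's r over the 16 replicates of the 3 h table, which pool both segments and arms, among 7078 genes averaging 5 TPM or more. Egr1 was most like Junb (0.943), Ier2 (0.924) and Cebpg (0.915). Btg2 was most like Rcan1 (0.966), Rasd1 (0.952) and Jun (0.942), and Zfp36 was most like Hspa1b (0.955), Rcan1 (0.953) and Klf6 (0.941). Myc was most like Akap12 (0.981), Tnfrsf12a (0.966) and Ccn2 (0.956). Klf10 was most like Rbm3 (0.921), Rassf1 (0.918) and Klf6 (0.912), Klf6 like Rcan1 (0.960), Eif1 (0.947) and Zfp36, and Ier3 like Atf3 (0.904), Tatdn2 (0.901) and Tnfrsf12a (0.873). These points share segment and arm, so the values describe how levels run side by side.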

How the data were processed

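RNA of dissected CCD and cTAL was made into cDNA with a SMARTer V4 kit and into Nextera XT libraries, per the labels' protocols; a strand setting is not given in the sources used here, so antisense partners cannot be told apart. The submitters' processing notes list STAR 2.7.3, RSEM 1.3.3 and the Rnor_6.0 build. What was deposited is TPM by gene, each time having its own file. TPM keep no depth, so no counting interval is given. Of the 56 samples listed, the 48 segment libraries were used and the 8 whole-kidney samples were not analysed here.

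TPM were taken as log2(TPM + 1), the 2 CCD libraries of a number averaged on that scale (levels are arithmetic means), and genes at 1 TPM or more in at least 4 of 8 replicates tested with limma 3.58.1 (trend; R 4.3.3, with the data.table package, version 1.17.8), with Benjamini-Hochberg adjustment over all genes tested and a threshold of 0.05. Figures used matplotlib under Python. The code was tested on simulated data. Nothing in the labels beyond the number ties libraries to animals, so p-values measure the spread between numbered samples.

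All 10 members are named, with up to 4 called genes of each list by smallest p, Fos, and the 3 genes most alike for each called member; genes named beyond these were chosen after their values were seen, where a count was small. Members and lists were chosen with earlier results of these data known. The deviations of same-numbered sham and UUO samples from their group means correlated at 0.188, 0.148, 0.115 and 0.229 in CCD at 30 min. These values are small. Sham numbers 1, 2 and 3 correlated best with the UUO sample of their own number, and sham number 4 with that of another number. The labels do not say that the numbers pair samples, so pairing is not established, and the paired fit changed no member's call. Alternatives were the pseudocount (0.1), no filter, median-of-ratios rescaling, a replicate block, single CCD libraries and leaving out each replicate.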

Additional observations from a re-analysis of the deposited data

Results flagged for a closer look

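Of 80 groups of 4 (10 genes, 8 groups each), 2 held a value far from the other 3, and chance flags about 1 in 20 such groups. Ier3 in CCD sham at 30 min was at 85.8 TPM in number 1, the lowest, with the gap to the next value taking 0.896 of the range. Btg2 in cTAL sham at 3 h was at 19.2 TPM in number 1, the highest, with a share of 0.833.

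Tests of the difference between groups passed for 3 genes. The response to UUO at 3 h was smaller in CCD than in cTAL for Btg2, by -3.19, and for Klf6, by -0.83. As given above, the Btg2 call held in every fit, while the Klf6 call was lost in most fits that left out a replicate. For Myc the response at 3 h exceeded that at 30 min by 3.19 in cTAL. The value in CCD was 2.97, but Myc lay under the filter in all 8 CCD replicates at 30 min, so it restates the change at 3 h. These values are on the log2(TPM + 1) scale.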

How the results depend on the processing

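TPM limit what can be said: depth is unknown, genes near 1 TPM have compressed changes, and members under the filter were not tested. No member that changed direction under an alternative was called in that fit, and the causes below were not tested. With no filter, members called fell to 3 in CCD at 3 h and to 1 for the segment difference at 3 h, while all genes called were 852 in CCD and 760 in cTAL at 3 h, where many more genes enter the adjustment. From library 1 of each CCD number alone, all genes called were 956 at 30 min and 676 at 3 h, 1 member passed for the segment difference at 30 min, and Nr4a1 turned to -0.14 for the segment difference at 3 h. From library 2 alone, 2 members were called in CCD at 3 h and 1 for the segment difference at 3 h, all genes called were 1 at 30 min and 490 at 3 h, and Btg2 at 30 min (-0.18), Egr1 (0.61) and Nr4a1 (0.28) at 3 h in CCD and Myc for the segment difference at 30 min (0.0766) turned.

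Median-of-ratios rescaling turned Egr1 in CCD at 3 h to 0.0733, Klf6 and Ier3 in CCD at 30 min to 0.12 and 0.25, Myc in cTAL at 30 min to 0.0151, and Ier3 to 0.16 for the segment difference at 30 min, -0.0855 for the sham segments at 30 min and -0.18 at 3 h. It raised the members called for the time difference in cTAL to 2, and a pseudocount of 0.1 lowered them to 0. That pseudocount turned Myc and Ier3 in cTAL at 30 min to 0.17 and -0.0004515. The replicate block changed no member's call in the 4 comparisons of UUO with sham. With it, all genes called were 770 in CCD and 580 in cTAL at 3 h. There, as in cTAL at 30 min, same-numbered samples correlated with mixed sign, so the check showed no pairing.

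Leaving out a replicate gave 2 to 6 members called in CCD at 3 h, 0 to 2 for the segment difference at 30 min, 1 to 2 at 3 h, and 1 to 2 for the time difference in CCD and in cTAL. All genes called ranged from 1 to 2 in CCD and 0 to 1 in cTAL at 30 min, and from 458 (without sham number 2) to 1596 in CCD and 439 (without sham number 2) to 988 in cTAL at 3 h. Members whose direction turned were, in CCD at 30 min, Btg2 (-0.27 to 0.34), Ier3 (-0.64 to 0.0922) and Klf6 (-0.66 to 0.0433), and in CCD at 3 h, Egr1 (-0.36 to 0.24) and Nr4a1 (-0.44 to 0.12). In cTAL at 30 min they were Ier3 (-0.43 to 0.49), Klf10 (-0.003001 to 0.73), Myc (-0.36 to 0.17) and Nr4a1 (-0.34 to 0.85). For the segment difference they were Ier3 (-0.75 to 0.24) and Myc (-0.26 to 0.31) at 30 min and Ier3 (-0.69 to 0.0357) at 3 h. The time difference of Egr1 in cTAL ran from -0.0811 to 0.80, and Ier3 between the sham segments at 3 h from -0.29 to 0.44.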
